A study of Mus musculus with 15 samples.

Results

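The genes described here are 10 factors of the naive pluripotent state, the state of the epiblast before implantation that mouse embryonic stem cells hold in culture. They were taken by name from the deposited gene tables: Zfp42, Klf2, Klf4, Klf5, Esrrb, Tfcp2l1, Tbx3, Nr0b1, Tcl1 and Dppa3. All 10 were found among 23845 genes, and all 10 passed the filter on low counts with 14335 genes in all. The rule names them by function and sets no threshold on expression, but they were chosen with earlier results of these data known.

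Poly(A) RNA was sequenced from E14 cells, 1 established line of mouse embryonic stem cells, kept on plates coated with 0.2% gelatin. Every group had received small interfering RNA: the control group EGFPKD against EGFP, and the others against a DEAD-box RNA helicase, namely Ddx10 (Ddx10KD), Ddx24 (Ddx24KD), Ddx27 (Ddx27KD) or Ddx54 (Ddx54KD). The 400 ng of RNA and 4 µL of Lipofectamine 2000 stayed on the cells for 16 h, and RNA was taken at 48 h, so that transient, partial knockdowns were compared. Each of the 5 groups had 3 biological replicates, and the 15 libraries held 26836946 to 27708782 expected counts. In its own knockdown Ddx10 was at 14.4% to 22.9% of its mean level in EGFPKD, Ddx24 at 25.2% to 34.3%, Ddx27 at 21.8% to 23.3% and Ddx54 at 22.7% to 31.6%. The labels name neither the culture medium nor the cytokine LIF.

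In the naive state a network of transcription factors stands around the core factors Pou5f1, Sox2 and Nanog. LIF acts through STAT3, which activates Klf4 and Tfcp2l1, and WNT signalling lifts repression of Esrrb by Tcf7l1. The factors bind near each other's genes, any of several Krüppel-like factors can stand in for another, and the network is taken down as cells move to the formative and primed states. Several of its members, among them Zfp42, Klf4, Tbx3 and Dppa3, are also known for levels that differ from cell to cell within a dish.

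In control cells the 10 factors spanned a wide range of transcript level. Compared per length, in TPM, Zfp42 stood highest at 871 ± 43.5 (SD, n = 3 here and for the values that follow), followed by Klf2 at 549 ± 42.8, Esrrb at 339 ± 7.57 and Klf5 at 244 ± 11.0. Nr0b1 was at 181 ± 2.31 TPM. The next 4 lay close together, with Tcl1 at 133 ± 5.80, Klf4 at 128 ± 19.6, Dppa3 at 113 ± 20.9 and Tfcp2l1 at 111 ± 5.66 TPM. Neighbours among these 4 did not differ beyond their spread. Tbx3 was lowest at 48.9 ± 13.9 TPM. Zfp42 thus sat at the percentile 99.0 of the tested genes in EGFPKD and Tbx3 at 76.4. Transcript length as RSEM estimated it did not vary for 7 of the factors, and ranged from 1361 to 1381 bases for Tcl1, 4200 to 4202 for Esrrb and 4706 to 4727 for Tbx3.

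Promoter sequence is shown for the 4 of these genes that fell in every knockdown and have an entry in the RefSeq promoter table. Klf4, which was called lower in none, is shown too, so that the 2 kinds can be read beside each other. Each line holds 200 bases that end at the base before the RefSeq transcription start, 5′ to 3′ on the gene's strand, in GRCm38.p6, the assembly behind mm10. Of the 10 factors, 7 were matched by symbol, Esrrb with 2 starts, and Klf5, Tbx3 and Dppa3 were not matched. Capitals mark matches to the motifs named below. The windows lie at chr8:43307010-43307209 (Zfp42, reverse strand), chr8:72318862-72319061 (Klf2, forward), chrX:86191575-86191774 (Nr0b1, forward), chr12:105222738-105222937 (Tcl1, reverse) and chr4:55532476-55532675 (Klf4, reverse).
Zfp42: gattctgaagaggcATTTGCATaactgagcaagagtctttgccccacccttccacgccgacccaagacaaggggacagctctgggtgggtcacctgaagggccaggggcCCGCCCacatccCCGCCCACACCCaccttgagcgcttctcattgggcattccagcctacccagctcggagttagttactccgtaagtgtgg
Klf2: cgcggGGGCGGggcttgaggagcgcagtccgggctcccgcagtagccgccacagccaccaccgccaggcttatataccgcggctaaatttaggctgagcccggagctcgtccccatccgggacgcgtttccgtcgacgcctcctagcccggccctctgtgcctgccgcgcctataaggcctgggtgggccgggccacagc
Nr0b1: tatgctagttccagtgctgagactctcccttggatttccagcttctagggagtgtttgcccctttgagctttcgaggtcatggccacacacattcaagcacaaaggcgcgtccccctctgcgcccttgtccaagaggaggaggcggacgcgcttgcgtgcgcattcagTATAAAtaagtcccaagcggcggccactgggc
Tcl1: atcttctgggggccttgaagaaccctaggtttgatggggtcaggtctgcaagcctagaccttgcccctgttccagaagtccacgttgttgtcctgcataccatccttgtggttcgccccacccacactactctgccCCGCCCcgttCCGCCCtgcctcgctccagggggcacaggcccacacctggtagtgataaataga
Klf4: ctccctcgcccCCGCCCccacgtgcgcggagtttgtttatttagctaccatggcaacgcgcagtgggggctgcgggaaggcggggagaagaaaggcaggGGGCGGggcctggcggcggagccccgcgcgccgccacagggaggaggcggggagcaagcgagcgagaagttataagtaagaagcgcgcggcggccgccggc

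Motifs were searched on both strands of the 250 bases before each start, in 32851 such windows of all genes and 8 of the factors. Zfp42 alone among these 8 held a Krüppel-like factor motif (CCACACCC, 75 bases before the start, in 3.2% of all windows), and it overlaps a GC box there. It also held an octamer of the kind POU factors bind (ATGCAAAT, 186 bases before the start, in 1.6% of all windows). Nr0b1 and Tfcp2l1 held a TATA box (TATAAA, 12.4% of all windows) at 32 and 28 bases before the start. A GC box (GGGCGG, 32.7% of all windows) occurred in Zfp42, Klf2, Tcl1 and Klf4, so that it was found with factors that fell and with one that was not called lower. A STAT motif (TTCNNNGAA, 7.02%) was found in 1 Esrrb window. Matches to the estrogen-related receptor motif (AAGGTCA, 4.08%) and the SOX motif (ACAATGG, 3.02%) are not in these 8 windows. GC content was 74% for Klf4, 71.2% for Klf2, 65.2% for Tfcp2l1, 58.4% for Zfp42, 57.6% for Tcl1, 57.2% for Nr0b1, and 60.8% and 52% for the 2 Esrrb windows, beside a median of 52.4% over all windows.

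Against EGFPKD, 6 of the 10 factors fell in Ddx10KD, Ddx24KD and Ddx27KD, and 5 fell in Ddx54KD. Zfp42, Klf2, Klf5, Nr0b1 and Tcl1 were called in each of these 4 comparisons, which share the 3 EGFPKD libraries, and Tfcp2l1 in the first 3. Klf4, Esrrb, Tbx3 and Dppa3 were not called in this fit, which leaves out the replicate number. A gene is called here when the Benjamini-Hochberg adjusted p of the edgeR quasi-likelihood test, over all 14335 genes, is under 0.05. Among all genes 14.5% were called lower in Ddx10KD, 13.1% in Ddx24KD, 16.1% in Ddx27KD and 11.2% in Ddx54KD. In fits of the 15 libraries that leave out the replicate number, edgeR, DESeq2 and limma-voom called none of the 10 higher. In the edgeR fit of this kind 0 of the 40 values had an unadjusted p under 0.05 in that direction, beside 16.5%, 15%, 17.3% and 13.1% of all genes called higher. With the replicate number as a block, edgeR called 3 of them higher in Ddx54KD, as given below. The median fitted log2 change over the 10 was -0.33 in Ddx10KD, -0.27 in Ddx24KD, -0.27 in Ddx27KD and -0.17 in Ddx54KD, and over all tested genes it was between 0.003 and 0.008. All 3 knockdown libraries lay below all 3 of EGFPKD for 7, 6, 6 and 5 of the 10, as they did for 22.4%, 19.6%, 23.3% and 19.5% of all genes. Summed over the 10, the level was 2639 to 2766 TPM in EGFPKD and 2182 to 2434 TPM in the 12 knockdown libraries, with no overlap. Zfp42 and Klf2, both called lower throughout, weigh most on this sum, at means of 871 and 549 TPM in EGFPKD. In bulk RNA, fewer cells that express a gene and less RNA of it per cell cannot be told apart.

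The test over all 5 groups together called the same 6 factors, where it called 29% of all genes. With the replicate number as a block, which the data bear out as a pairing, it called all 10 factors and 49.5% of all genes. Blocked counts against EGFPKD were 8 lower in Ddx10KD, 6 in Ddx24KD and 7 in Ddx27KD, with none higher, where 21.3%, 19.9% and 22.6% of all genes were called lower and 22.8%, 21.3% and 23.3% higher. Ddx54KD went from 5 called to 8 with the block, 5 lower and 3 higher, beside 18.8% and 20% of all genes.

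**Figure D1:**
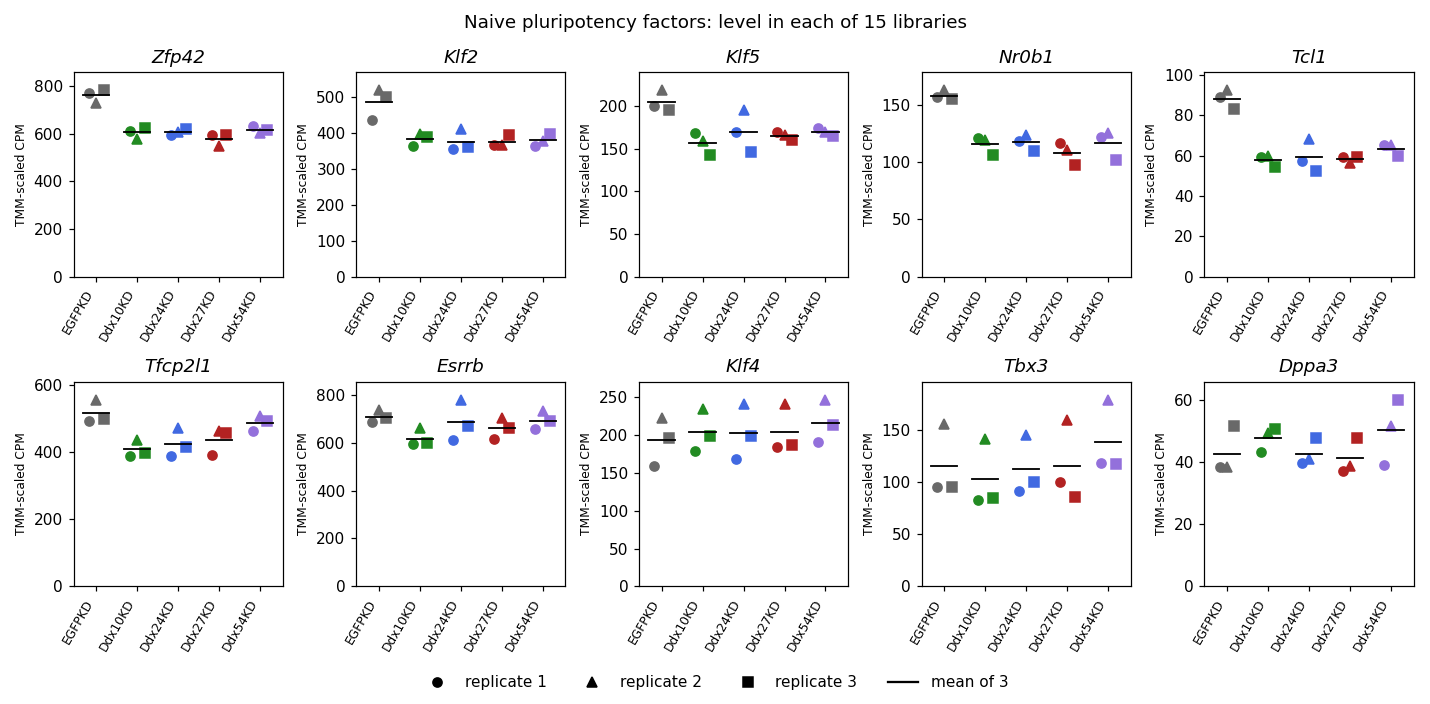
Level of each factor in every library, in CPM after TMM scaling (linear axis from 0), by siRNA group; marker shape gives the replicate number and the bar the mean of 3. In the upper row, for Zfp42, Klf2, Klf5, Nr0b1 and Tcl1, every knockdown library lies below every EGFPKD library. In the lower row replicate 2 is the highest in all 5 groups for Tfcp2l1, Esrrb, Klf4 and Tbx3, and replicate 3 for Dppa3.

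Tcl1, a co-activator of AKT kinase that supports self-renewal, had the largest fitted fall of the 10 in each comparison. Its level, in CPM (reads per library scaled to the same total) after TMM scaling, was 88.8, 92.2 and 82.9 in the EGFPKD libraries (replicates 1, 2 and 3, in this order from here on). It was 59.5, 60.02 and 54.2 in Ddx10KD and 57.4, 68.2 and 52.4 in Ddx24KD. Ddx27KD libraries had 59.3, 56.4 and 59.5 CPM, and Ddx54KD libraries 65.0, 65.0 and 59.95. Every knockdown library was below the lowest control, at group means of 65.8% ± 3.63, 67.4% ± 9.14, 66.4% ± 1.96 and 72.0% ± 3.33 of the EGFPKD mean (SD, n = 3). Fitted log2 changes were -0.60, -0.57, -0.59 and -0.47, each with an SE of 0.08, and edgeR adjusted p of 3.37e-05, 6.82e-05, 3.15e-05 and 3.92e-04. Tcl1 lies on chromosome 12 at 105216750-105222793, reverse strand (GENCODE M21 on mm10).

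Nr0b1 encodes DAX1, an orphan nuclear receptor that binds and restrains other factors of the network. It was at 156.5, 162.4 and 154.7 CPM in EGFPKD, and at 120.8, 119.4 and 106.2 in Ddx10KD. Ddx24KD libraries had 118.3, 123.8 and 109.5 CPM, Ddx27KD libraries 116.7, 110.7 and 97.7, and Ddx54KD libraries 121.9, 125.3 and 102.0. The groups did not overlap with the control, and the third replicate was the lowest in each of the 5 groups. Log2 changes were -0.45, -0.43, -0.54 and -0.44 (SE 0.08 each), with edgeR adjusted p of 5.29e-04, 8.87e-04, 8.78e-05 and 8.98e-04. Its gene is on chromosome X at 86191764-86195947, forward strand.

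Zfp42, the zinc finger protein also known as Rex1 and the usual reporter of the naive state, had the highest level in TPM and the smallest spread within groups of the 10. Control libraries had 773.0, 730.5 and 781.8 CPM. The values were 613.7, 579.2 and 626.2 in Ddx10KD and 594.3, 606.1 and 618.4 in Ddx24KD. They were 593.9, 548.8 and 594.9 in Ddx27KD and 633.3, 602.9 and 615.0 in Ddx54KD. The lowest control library, at 730.5 CPM, lay above the highest knockdown library, at 633.3, and the means were 79.6% ± 3.20, 79.6% ± 1.58, 76.0% ± 3.45 and 81.0% ± 2.01 of control (SD, n = 3). The log2 changes of -0.33, -0.33, -0.40 and -0.30 (SE 0.05 each) had edgeR adjusted p of 7.41e-05, 8.65e-05, 1.02e-05 and 2.13e-04. It lies on chromosome 8 at 43295063-43306980, reverse strand.

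Klf2 and Klf5 are Krüppel-like factors whose targets overlap with those of Klf4. Klf2 was at 436.8, 518.0 and 500.8 CPM in EGFPKD, and between 356.0 and 410.0 CPM in the 12 knockdown libraries, so that none overlapped with the control. Its group means were 78.8%, 77.5%, 77.4% and 78.2% of control in Ddx10KD, Ddx24KD, Ddx27KD and Ddx54KD. The fitted log2 changes of -0.34, -0.37, -0.37 and -0.35 (SE 0.07 each) had edgeR adjusted p of 0.00120, 8.09e-04, 5.76e-04 and 0.00132. Klf5 fell by a similar measure, from 199.4, 218.1 and 195.2 CPM in EGFPKD to 168.6, 158.6 and 142.1 in Ddx10KD and 169.0, 194.7 and 146.1 in Ddx24KD. Ddx27KD libraries had 169.8, 165.5 and 160.0 CPM and Ddx54KD libraries 174.3, 169.2 and 164.8. Replicate 2 of Ddx24KD had the highest knockdown value of Klf5, just under the lowest control, and the third replicate was the lowest in all 5 groups.

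For Klf5 the log2 changes were -0.38, -0.27, -0.31 and -0.27 (SE 0.08 each), with edgeR adjusted p of 0.00237, 0.0251, 0.00934 and 0.0263. Its calls in Ddx24KD and Ddx54KD were lost in some fits that leave out 1 library and ignore the pairing. In Ddx24KD the adjusted p became 0.0969 without replicate 2 of EGFPKD, 0.0590 without replicate 1 of Ddx24KD and 0.130 without its replicate 3, where the change was -0.17. In Ddx54KD it became 0.0982 without replicate 2 of EGFPKD, 0.0605 without replicate 2 of Ddx54KD and 0.0908 without its replicate 3. With each library left out in turn, the log2 change in Ddx54KD stayed between -0.30 and -0.22. With all libraries and the replicate block, edgeR gave 8.40e-04 and 9.97e-04. Klf2 lies on chromosome 8 at 72319033-72321656 and Klf5 on chromosome 14 at 99298691-99315036, both on the forward strand.

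Tfcp2l1, a grainyhead-like factor under LIF and STAT3, fell in 3 of the comparisons. It was at 491.8, 554.2 and 498.0 CPM in EGFPKD, at 389.4, 436.6 and 398.1 in Ddx10KD, and at 387.2, 472.6 and 413.8 in Ddx24KD. In Ddx27KD it was at 391.4, 461.6 and 457.7 CPM, and in Ddx54KD at 462.6, 507.5 and 492.4. Only the Ddx54KD values of these overlapped with the control. The log2 changes were -0.33 (SE 0.08) in Ddx10KD, -0.28 in Ddx24KD, -0.24 in Ddx27KD and -0.08 in Ddx54KD, with edgeR adjusted p of 0.00410, 0.0145, 0.0287 and 0.510. Without replicate 2 of EGFPKD, in fits that ignore the pairing, the adjusted p was 0.0654 in Ddx24KD and 0.121 in Ddx27KD. The call was also lost without replicate 1 (0.0687) or 3 (0.0523) of Ddx24KD and without replicate 1 of Ddx27KD (0.135). The blocked edgeR fit of all libraries gave 1.74e-05 and 7.93e-05. Its gene lies on chromosome 1 at 118627945-118685168, forward strand.

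Esrrb, an orphan nuclear receptor and a direct target of the WNT arm, lay between the 2 kinds of factor. Its CPM was 683.8, 735.7 and 702.8 in EGFPKD and 592.2, 659.3 and 599.0 in Ddx10KD, with no overlap. In Ddx24KD it was 609.5, 776.8 and 670.8, in Ddx27KD 613.2, 704.4 and 660.7, and in Ddx54KD 655.3, 731.1 and 689.1. These 3 groups overlapped with the control. Its log2 change in Ddx10KD was -0.20 (SE 0.08), with an edgeR adjusted p of 0.0618, and with the replicate block it was called at 3.40e-04. It was also called without replicate 2 of Ddx10KD (0.0434) and without replicate 1 (0.0339) or 2 (0.0189) of Ddx24KD, both libraries that enter this comparison through the shared estimate of spread. In Ddx27KD the change was -0.10, with an edgeR adjusted p of 0.335 and of 0.0337 with the block, and this blocked call was lost without the libraries numbered 1 (0.221) or 3 (0.110). The changes of -0.05 and -0.03 in Ddx24KD and Ddx54KD were not called in either fit of the 15 libraries. Without the libraries numbered 2, the blocked edgeR fit called Esrrb lower in Ddx24KD (log2 change -0.12, adjusted p 0.0268). Without those numbered 1 the same fit gave a log2 change of 0.0036 there, with an adjusted p of 0.963. Esrrb lies on chromosome 12 at 86361117-86521628, forward strand.

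Klf4, the Krüppel-like factor activated by STAT3, was not called lower in any comparison. It was at 159.4, 223.1 and 196.9 CPM in EGFPKD, 178.7, 234.1 and 199.5 in Ddx10KD, and 169.2, 241.5 and 198.6 in Ddx24KD. Ddx27KD libraries had 184.6, 241.8 and 187.7 CPM and Ddx54KD libraries 190.7, 246.4 and 212.9. Replicate 2 was the highest and replicate 1 the lowest in all 5 groups, and all groups overlapped. The log2 changes were 0.08, 0.07, 0.08 and 0.17 (SE 0.15 each), with edgeR adjusted p of 0.723, 0.753, 0.701 and 0.448. With the block, Klf4 was called higher in Ddx54KD, at 0.17 and an edgeR adjusted p of 0.00411, which was 0.0900 without the libraries numbered 1. In each pair of the same number the Ddx54KD library had more, at 119.6%, 110.4% and 108.2% of its EGFPKD partner. Klf4 lies on chromosome 4 at 55527143-55532466, reverse strand.

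Tbx3, a T-box factor downstream of LIF and phosphoinositide 3-kinase signalling, had the widest spread of the 10. EGFPKD libraries had 95.3, 155.5 and 95.3 CPM, Ddx10KD libraries 82.8, 141.4 and 85.0, and Ddx24KD libraries 91.4, 145.2 and 100.2. Ddx27KD libraries had 99.4, 159.4 and 85.9, and Ddx54KD libraries 117.9, 178.2 and 117.0. In every group replicate 2 was far above the other 2. Without the block the log2 changes were -0.16, -0.04, -0.01 and 0.26, with SEs of 0.27 and edgeR adjusted p of 0.689, 0.932, 0.993 and 0.529. With it, Tbx3 was called lower in Ddx10KD, at -0.17 (SE 0.05, edgeR adjusted p 0.0171), and higher in Ddx54KD, at 0.27 (SE 0.05, 6.40e-04). Without the libraries numbered 1 the blocked adjusted p of edgeR was 0.129 in Ddx10KD. Same-numbered pairs stood at 86.9%, 90.9% and 89.2% in Ddx10KD and at 123.8%, 114.6% and 122.8% in Ddx54KD. Tbx3 lies on chromosome 5 at 119670669-119684724, forward strand.

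Dppa3, also called Stella, protects methylation marks in the early embryo and is patchy in embryonic stem cells. It had the fewest reads of the 10, at 38.3, 38.3 and 51.5 CPM in EGFPKD and 43.3, 49.3 and 50.7 in Ddx10KD. Ddx24KD had 39.6, 40.8 and 47.8 CPM, Ddx27KD 37.2, 38.6 and 47.9, and Ddx54KD 39.1, 51.6 and 59.9. All groups overlapped, and replicate 3 was the highest in all 5. Log2 changes were 0.16, 0.00, -0.05 and 0.23 (SE 0.14 to 0.15), with edgeR adjusted p of 0.433, 0.996, 0.823 and 0.264. The blocked fit called Dppa3 higher in Ddx54KD (0.23, edgeR adjusted p 0.0146), with pairs at 102.1%, 134.6% and 116.3%, and gave 0.190 without the libraries numbered 2. Its gene lies on chromosome 6 at 122626410-122630272, forward strand.

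**Figure D2:**
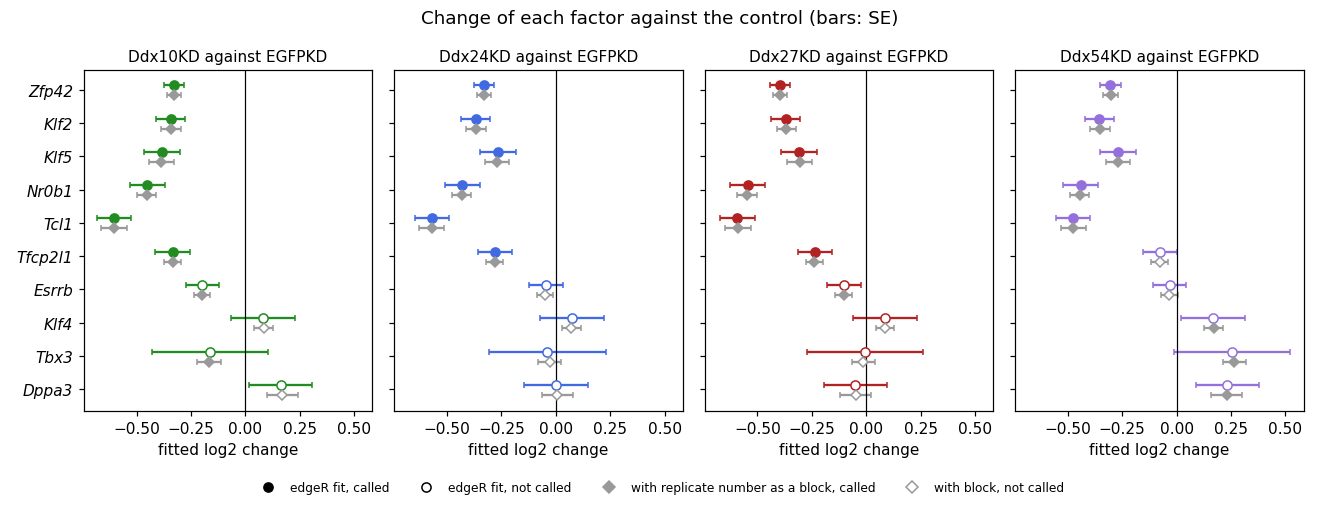
Fitted log2 change against EGFPKD with its SE, by factor and knockdown (circles: 15 libraries with no block; grey diamonds: with the replicate number as a block; filled: called). Zfp42, Klf2, Klf5, Nr0b1 and Tcl1 are left of 0 and called in all panels in both fits, while Klf4, Tbx3 and Dppa3 are called higher in Ddx54KD with the block alone.

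How much of each factor's variation went with the siRNA group and how much with the replicate number is given next as a description. As a share of the sum of squares of log2(CPM + 1) over 15 libraries, the group held 92.0% for Zfp42, 87.6% for Tcl1, 81.4% for Nr0b1, 78.7% for Klf2, 66.5% for Tfcp2l1 and 64.9% for Klf5. The replicate number held the larger share in the others, with 86.6% for Klf4, 81.9% for Tbx3, 58.6% for Dppa3 and 51.0% for Esrrb. The median over all tested genes was 48.6% for the group and 18.4% for the number, and in 73.7% of genes the group held more. These shares are not adjusted for there being more groups than replicate numbers, which by noise alone gives the group the larger share. The residual SD of Tbx3 within groups, 0.401 on the log2 scale, was at the percentile 99.7 of all genes, that of Klf4 (0.221) at 92.7 and that of Dppa3 (0.211) at 91.0. For Zfp42 it was 0.0503, at the percentile 6.49. What the replicate number stands for (a day, a passage, a batch) is not given in the sources used here.

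**Figure D3:**
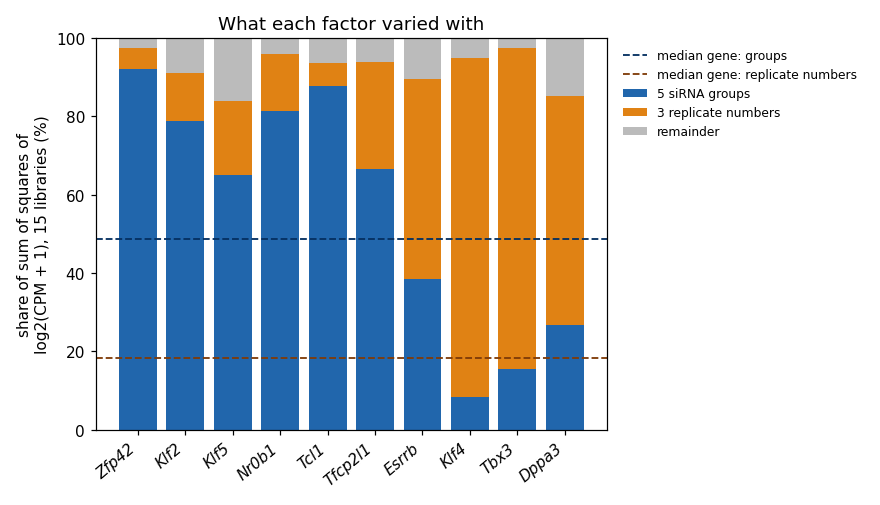
Share of each factor's sum of squares (percent, from 0 to 100) that goes with the 5 siRNA groups, the 3 replicate numbers and the remainder. The group share is above the median gene (48.6%, dashed) for 6 factors, from 64.9% for Klf5 to 92.0% for Zfp42, and below it for Esrrb, Klf4, Tbx3 and Dppa3.

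Whether the knockdowns differed from each other in these factors was tested in 6 pairs, 60 values in all. None was called by edgeR, DESeq2 or limma-voom, 3 had an unadjusted edgeR p under 0.05, and the size of the fitted log2 difference had a median of 0.07 and reached 0.42. Over all genes 1.6% were called in at least 1 of the pairs. With the block 9 of the 60 were called, in 4 of the 10 factors, where 15.6% of all genes had such a call. Tfcp2l1 was then lower in Ddx10KD, Ddx24KD and Ddx27KD than in Ddx54KD, by -0.26, -0.20 and -0.16 (edgeR adjusted p 4.79e-04, 0.0121 and 0.0364). Tbx3 was lower than in Ddx54KD in the same 3, by -0.43, -0.29 and -0.28 (6.83e-05, 0.00654 and 0.00989). Esrrb was lower in Ddx10KD than in Ddx24KD (-0.15, 0.0288) and Ddx54KD (-0.17, 0.00953), and Dppa3 lower in Ddx27KD than in Ddx54KD (-0.28, 0.0419). For Zfp42, Klf2, Klf5, Nr0b1, Tcl1 and Klf4 no difference between knockdowns was called in either fit.

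Related genes were read from lists of the network's other parts. Of 20 other genes of the naive state, 7 fell and 2 rose in Ddx10KD, 6 and 2 in Ddx24KD, 5 and 2 in Ddx27KD, and 2 and 2 in Ddx54KD, at medians of -0.09, -0.04, -0.07 and -0.08. The shares of all genes to set beside these and the list counts that follow were 11.2% to 16.1% lower and 13.1% to 17.3% higher, and with the block 18.8% to 22.6% lower and 20% to 23.3% higher. With the block the same list had 7 lower and 3 higher, 8 and 3, 8 and 4, and 9 and 3. Nanog, a core factor, changed by -0.47, -0.32, -0.43 and -0.19, the last not called (edgeR adjusted p 0.0730). The homeobox gene Gbx2 changed by -0.14 (edgeR adjusted p 0.272), -0.29, -0.28 and -0.54, the last 3 called. Of the remaining core factors, Sox2 rose by 0.24, 0.26 and 0.23 in Ddx24KD, Ddx27KD and Ddx54KD and was at 0.12 in Ddx10KD (0.0934). Pou5f1 fell by 0.18 in Ddx27KD and 0.16 in Ddx54KD, and was at -0.10 and -0.11 in Ddx10KD and Ddx24KD (0.144 and 0.111).

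The signalling genes above the factors were counted in the same way. Among 12 genes of LIF and STAT3 signalling 2, 1, 3 and 1 fell and none rose, and with the block 3, 2, 5 and 3 fell and 1, 1, 3 and 2 rose. Bcl3, a STAT3 target, changed by -0.44, -0.42, -0.45 and -0.24 (the last with an edgeR adjusted p of 0.115), and the kinase gene Jak1 by -0.20, -0.10, -0.17 and -0.07, called in Ddx10KD and Ddx27KD. Of 12 genes of the WNT arm 1, 0, 1 and 0 fell and 0, 1, 2 and 0 rose, and with the block 1, 0, 2 and 0 fell and 2, 3, 2 and 2 rose. Tcf7l1, the repressor of Esrrb, fell by 0.41 in Ddx10KD and 0.27 in Ddx27KD, and Apc, a part of the complex that degrades beta-catenin, rose by 0.21 in Ddx24KD and 0.22 in Ddx27KD. Of 16 genes that act in leaving the naive state, 5, 3, 5 and 4 fell and 2, 4, 4 and 2 rose, and with the block 5, 6, 7 and 6 fell and 4, 5, 6 and 2 rose. Rbpj, the effector of Notch, fell by 0.40, 0.32, 0.40 and 0.27, the Polycomb partner Jarid2 fell by 0.17, 0.16, 0.22 and 0.30, and Tfe3, which can activate Esrrb, rose by 0.22, 0.29, 0.27 and 0.14.

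Genes of the formative and primed epiblast moved in both directions. The 15 listed summed to 1402 to 1497 TPM in EGFPKD and 1288 to 1533 TPM in the knockdowns, with Utf1 at 838 to 931 TPM over all libraries. Of 15, 4 fell and 6 rose in Ddx10KD, 1 and 5 in Ddx24KD, 4 and 4 in Ddx27KD, and 5 and 2 in Ddx54KD, with medians of -0.05, 0.28, 0.06 and -0.09. With the block 5 fell and 6 rose in Ddx10KD, 4 and 8 in Ddx24KD, 6 and 5 in Ddx27KD, and 6 and 4 in Ddx54KD. Otx2, a homeobox factor of the formative state, rose by 1.45, 1.49, 1.33 and 0.71, and the zinc finger gene Sall2 by 1.04, 1.21, 1.17 and 0.70. Pou3f1, the POU factor also known as Oct6, rose by 1.53, 1.51 and 1.33 and was at 0.47 in Ddx54KD (edgeR adjusted p 0.175).

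**Figure D4:**
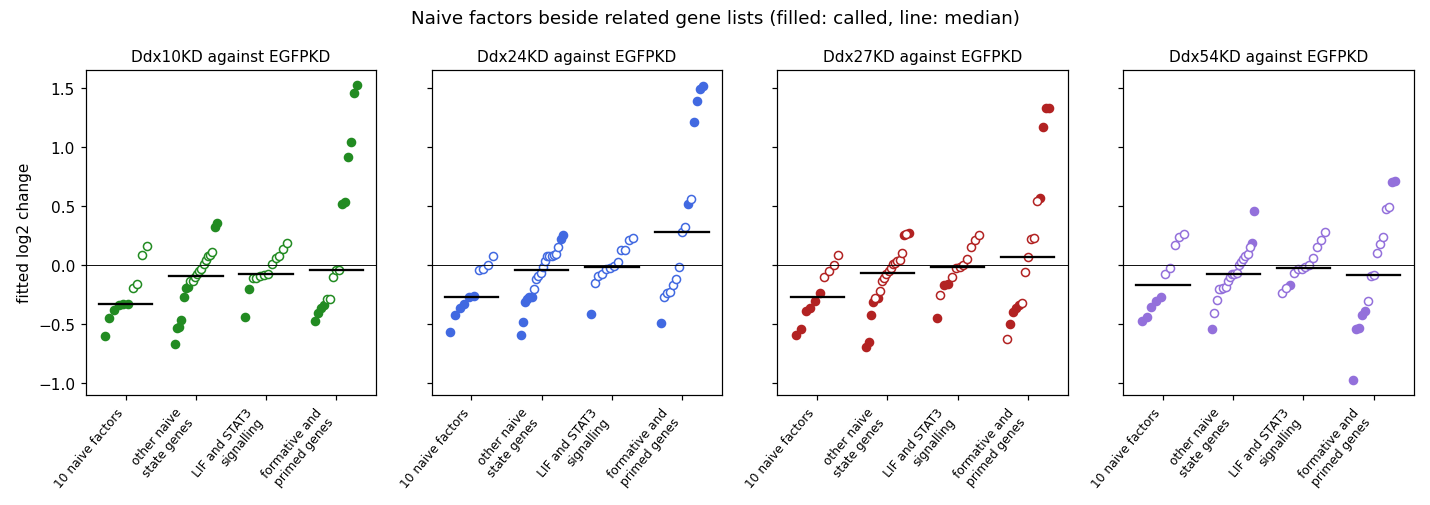
Fitted log2 change against EGFPKD of each gene (dots, filled where called) of the 10 factors and 3 related lists, with the median of each list as a line, by knockdown. The factors have medians of -0.33, -0.27, -0.27 and -0.17, and the formative and primed list holds the largest changes shown, Otx2, Sall2 and Pou3f1 among them.

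Markers of the labelled cell type and of other cells were read as sums and counts, and some of them changed in the knockdowns. Embryonic stem cell markers summed to 7405 to 7506 TPM in EGFPKD and 7097 to 7541 TPM in the knockdowns, with Pou5f1 at 1443 TPM or more in every library. These 8 markers are those of the labelled cell type, and Zfp42 and Esrrb are among them. Dppa5a alone had 2237 to 2820 TPM. Of the 8, 3, 2, 4 and 3 fell and 0, 1, 1 and 1 rose, at medians of -0.15, -0.08, -0.14 and -0.12. With the block 5, 4, 5 and 4 fell and 2, 2, 2 and 2 rose. The 5 primed epiblast markers summed to 34.2 to 46.8 TPM in EGFPKD and to 88.0 to 124, 82.2 to 119, 73.3 to 107 and 49.5 to 69.7 TPM in Ddx10KD, Ddx24KD, Ddx27KD and Ddx54KD, where 4, 3, 2 and 1 of them rose (4, 5, 3 and 3 with the block). Otx2 and Pou3f1 weigh most on this sum, at 18.0 to 75.5 and 7.22 to 37.2 TPM over all libraries. Fgf5, Sox3 and Cdh2 were at 1.02, 5.41 and 8.92 TPM or less. The sum of 9 genes of 2-cell-like cells went from 37.7 to 51.5 TPM in EGFPKD to 73.2 to 92.6 in Ddx24KD, where 6 rose, was 50.7 to 69.9 in Ddx27KD and 58.2 to 75.2 in Ddx54KD, where 2 and 4 rose, and 33.8 to 47.2 in Ddx10KD, where 1 rose. Trophoblast markers summed to 88.4 to 118 TPM in EGFPKD and 108 to 163 in the knockdowns, germ cell markers to 157 to 190 and 172 to 271, and primitive endoderm markers to 36.2 to 40.4 and 26.3 to 39.8. Single genes weigh on these sums. Over all libraries Tfap2c, in the first 2 lists, had 56.9 to 130 TPM, and Lama1, in the third, 18.2 to 30.5. Median log2 changes were -0.02, 0.14, -0.10 and 0.23 for trophoblast, 0.13, 0.13, 0.16 and 0.13 for germ cell and 0.12, 0.25, 0.44 and 0.10 for endoderm markers. Of 8 tested in each list, 0, 1, 1 and 0, then 1, 1, 1 and 0, then 2, 2, 2 and 2 fell.  1, 1, 1 and 1, then 1, 1, 1 and 1, then 1, 0, 1 and 1 rose. Fibroblast or feeder markers summed to 18.9 to 26.9 and 11.9 to 18.1 TPM, most of it Thy1, with Postn at 0 in all 15 libraries and Col3a1, Dcn and Lum at 0.04 TPM or less. The part of these cells in the fall of the factors was not tested.

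The genes whose 4 changes against EGFPKD were nearest to those of a factor, by the root mean square difference on the log2 scale among 9541 named genes with a mean of at least 5 TPM in a group, were Gfpt2 (0.016) and Tnks1bp1 (0.021) for Tcl1 and Psmg4 (0.017) and Arhgdig (0.023) for Nr0b1. For Zfp42 they were Zmym1 (0.011) and Fads2 (0.012), for Klf2 Tmem97 (0.0063) and Zfp341 (0.014), for Klf5 Mapk3 and Usb1, and for Tfcp2l1 Tstd3 and Ppp1r18. Within 0.1 of the factor were 86 genes for Tcl1, 195 for Nr0b1 and 505 to 700 for the others, so these are descriptions with many near neighbours. The 4 changes share the EGFPKD libraries.

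In the authors' deposited tables from EBSeq, all 10 factors are listed for each knockdown. At a posterior probability of differential expression of at least 0.95, the authors' deposited table has 7 of them lower in Ddx10KD, 4 in Ddx24KD, 5 in Ddx27KD and 5 in Ddx54KD, and none higher, where 17.1%, 12.4%, 18.3% and 13.1% of its genes pass in either direction. By the authors' deposited table Esrrb passes in Ddx10KD (0.976), which edgeR did not call without the block. Klf5 (0.130) and Tfcp2l1 (0.287) do not pass in the authors' deposited table for Ddx24KD, nor Tfcp2l1 (0.299) in that for Ddx27KD, where edgeR called them. The log2 ratios in the authors' deposited table for Ddx24KD lie further from the edgeR changes, by a median of 0.041 over all genes, than those for the other knockdowns (0.0039 to 0.0068). What that table was made from was not tested.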

How the data were processed

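Poly(A) RNA of 15 libraries was analysed, 3 in each of 5 groups, grouped by the treatment in the labels. Expected counts (fractional read estimates per gene, not scaled for depth) and TPM were made by the authors with RSEM and mm10, per the file headers and the submitters' processing notes. Neither a version of RSEM nor the aligner or gene annotation behind it is named there. In the EBSeq tables the authors deposited, the posterior probability is a score from 0 to 1 for each gene, and the fold change is a ratio of knockdown to control.

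For the tests, expected counts were rounded to whole numbers. The filterByExpr rule kept 14335 of 23845 genes, and TMM scaled the libraries. A single edgeR quasi-likelihood fit (edgeR 4.0.16 in R 4.3.3) held all 15 libraries, and Benjamini-Hochberg adjustment ran over every gene kept. Each knockdown was compared with EGFPKD, the knockdowns with each other in 6 pairs, and the 5 groups together. The other tools were limma 3.58.1 and DESeq2 1.42.0. Totals of 26836946 to 27708782 counts per library give each factor at least 37.2 CPM, and counting noise sets a floor below the replicate spread. On simulated data for Ddx10KD against EGFPKD (14209 genes), the test recovered 14 of 50 genes changed by 1.25-fold, 33 of 50 by 1.5-fold, 42 of 50 by 2-fold and 49 of 50 by 4-fold, with 7 false calls. A factor that is not called may therefore have changed. The size of change its values allow is read from its own fitted log2 change and SE, not from these recoveries. The simulation changed genes drawn at random and held no effect of the replicate number. It thus does not give the recovery for a factor with a wide spread, such as Tbx3.

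Replicate numbers come from the labels. Once group means were subtracted, libraries that share a number correlated above 0.1 in 30 of 30 pairs (0.194 to 0.502), and 15 of 15 libraries were nearest to others with their own number. The numbers therefore pair the libraries, and each fit was repeated with the number as a block. Fits that leave out libraries ignore the pairing unless the block is named. Between replicates of a group the mean chi-squared per gene was 5.67 to 20.0, above counting noise.

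The 10 factors, the related lists and the tests were chosen with earlier results of these data known, and no list was tested. Named genes are the 10 factors, for each factor called against EGFPKD the 2 genes with the nearest changes (predicted gene models left out), up to 3 genes of each list with the smallest p over all 5 groups, the core factors and the 4 targets. 1 gene that this rule names is not reported here. Expected counts of each factor were not whole in at least 6 of the 15 libraries, so some reads were split with other genes, in a share that was not tested. Promoters are RefSeq's, from GRCm38.p6, and gene positions are from GENCODE M21. Alternatives were scaling by RLE or upper quartile, a filter of 10 CPM in 3 libraries, no filter at all, DESeq2, limma-voom, the block, an adjusted p under 0.01, the compared groups alone and each library left out. After the data were seen, fits without the libraries numbered 2, and blocked fits without each number in turn, were added.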

Additional observations from a re-analysis of the deposited data

How the results depend on the processing

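In the comparisons with EGFPKD, the number of factors called was within 1.5 times of that reported under RLE and upper-quartile factors, both count filters, DESeq2, limma-voom, an adjusted p under 0.01 and the compared groups alone. The replicate block moved it from 5 to 8 in Ddx54KD, from 0 to 9 of 60 between pairs of knockdowns and from 6 to 10 in the test over all 5 groups; no other count of factors moved by over 1.5 times. Blocked fits of 10 libraries gave 8 in Ddx54KD with the numbers 1 and 2, and 2, 6 and 4 pairs with the numbers 2 and 3, 1 and 3, and 1 and 2. Without the block, the libraries numbered 1 and 3 gave 1 pair. With single libraries left out, the count was 6 to 7 in Ddx10KD, 4 to 6 in Ddx24KD, 5 to 6 in Ddx27KD, 4 to 5 in Ddx54KD, 0 between pairs and 5 to 6 over all groups. The cause of these moves was not tested.

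Calls of Zfp42, Klf2, Nr0b1 and Tcl1 held in every alternative run. Klf5 was lost in Ddx24KD with the compared groups alone (0.0719), and with the libraries numbered 1 and 3 in Ddx27KD (0.0549) and Ddx54KD (0.121). Esrrb in Ddx10KD was called by DESeq2 (0.0426) and with the compared groups alone (0.0143). Tbx3 in Ddx54KD was called at 0.0193 with the libraries numbered 1 and 3 and in all 3 blocked subsets. In the fit of all 15 libraries the block added the calls given above for Esrrb, Klf4, Tbx3 and Dppa3 and changed no other call of a factor against EGFPKD. Blocked fits of 10 libraries also called Esrrb lower in Ddx24KD (-0.12, adjusted p 0.0268, numbers 1 and 3), and Klf4 higher in Ddx27KD (0.16, 0.0138) and Dppa3 higher in Ddx10KD (0.27, 0.0212) with the numbers 1 and 2.

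Signs changed for values that the fit of 15 libraries without the block did not call, many of them near 0. Tbx3 in Ddx10KD was at -0.16 in that fit and was called lower with the block. Without replicate 2 of EGFPKD, and without the block, its log2 change was 0.108. For Tbx3 in Ddx27KD the log2 change was 0.0052 with upper-quartile factors, 0.014 with the 10 CPM filter and 0.048 with the block on numbers 1 and 2. For Tbx3 in Ddx24KD it was 0.0069 with the numbers 1 and 3 and 0.0071 with the block added, and for Esrrb in Ddx24KD 0.0036 with the block on numbers 2 and 3. Dppa3 in Ddx24KD was at -0.0024 with RLE factors and -0.0024 with DESeq2, at -0.040 with the numbers 1 and 3, and at -0.033 and -0.016 with the block on numbers 1 and 3 and on 2 and 3. With single libraries left out the log2 change ranged from -0.042 to 0.191, -0.070 to 0.184 and -0.056 to 0.197 for Klf4 in Ddx10KD, Ddx24KD and Ddx27KD, and from -0.459 to 0.108, -0.267 to 0.231 and -0.318 to 0.267 for Tbx3. It ranged from -0.144 to 0.029 for Esrrb in Ddx24KD and from -0.077 to 0.0052 in Ddx54KD, and from -0.087 to 0.158 and -0.171 to 0.107 for Dppa3 in Ddx24KD and Ddx27KD.

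Over all genes, an adjusted p under 0.01 gave 2673, 2310, 3039 and 1860 calls in Ddx10KD, Ddx24KD, Ddx27KD and Ddx54KD against 4438, 4026, 4788 and 3483, and 2336 against 4151 over all groups. The block gave 5570 in Ddx54KD and 7098 over all groups. Without replicate 3 of Ddx54KD that comparison had 2232, and the libraries numbered 1 and 3 gave 2161, and 2329 over all groups.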
